A study of Mus musculus with 2 samples.

Results

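The VEGF and PDGF families of angiogenic growth factors were followed through 10 genes in the LM8 cell line: the VEGF ligands Vegfa, Vegfb, Vegfc and Pgf, the PDGF ligands Pdgfa, Pdgfb and Pdgfc, the receptor Pdgfra, and the heparin-binding factors Ptn and Mdk. The genes were chosen by family, with earlier results of these data known, and they are 10 of 12393 genes with a probe set of their own on the array. LM8 is a mouse osteosarcoma line that metastasises to the lung. It was transfected with pcDNA3.1 that carried either the full-length cDNA of human PHD4 (hPHD4) or no insert, and both cultures were selected in 0.5 mg/ml G418. PHD4 is a prolyl hydroxylase of the endoplasmic reticulum membrane, a relative of the oxygen sensors that hydroxylate hypoxia-inducible factors (HIF). Each group was 1 stable clone on 1 array, so a difference between the constructs and a difference between any pair of clones of this line cannot be told apart. No test and no p-value are possible, and none of the differences below has a replicate check.

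VEGF-A is the principal mitogen of endothelial cells and a classical HIF target, VEGF-B and placental growth factor bind the receptor Flt1, and VEGF-C acts mainly on lymphatic endothelium through Flt4. PDGF-A and PDGF-C act through Pdgfra, whereas PDGF-B also acts through Pdgfrb; these receptors drive growth and migration of mesenchymal cells, among them osteoblast precursors and the mural cells of vessels. PDGF-C is secreted as a latent protein that proteases must cut before it binds its receptor. Pleiotrophin and midkine form a separate family of secreted factors that bind heparan sulfate and the receptor phosphatase Ptprz1.

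The deposited values are MAS5 signals on a log2 scale, with each array scaled to a common target. Below, a signal was taken as measured when it lay above a floor, the 40th percentile of its array, which stood at 6.34 (81.1 linear) for the hPHD4 clone and at 6.08 (67.8 linear) for the control. All ratios are hPHD4 clone over control clone. The 10 genes had 16 probe sets, 12 of them above the floor on both arrays, which left 7 measured genes: Vegfa, Vegfb, Pgf, Pdgfa, Pdgfc, Pdgfra and Ptn. Over all 7452 measured genes the median log2 ratio was 0.03, and the central 95% of genes lay between −0.73 and 0.92. With no replicates, the only spread at hand was that between probe sets reading the same gene. When genes were divided into equal groups by signal, the pooled SD of these log2 ratios was 0.40 for dim, 0.37 for middle and 0.28 for bright genes. It holds nothing of the variation from one clone, culture or array to the next.

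The labels could be checked only in part, because 0 probe sets were assigned to P4htm, the mouse gene for PHD4, and the human transgene has no probe set of its own on a mouse array. Of 8 osteoblast markers listed, 5 had a probe set assigned to the gene alone, and all 5 passed both floors. Runx2, Bglap and Spp1 had none and could not be checked. Sp7, a transcription factor of osteoblasts, had linear signals of 3039 and 2588 in the hPHD4 and control clones, and Alpl, encoding alkaline phosphatase, 3712 and 3218. The collagen I genes Col1a1 and Col1a2 were bright as well, at log2 ratios of −0.11 and −0.43. Ibsp, encoding bone sialoprotein, was dimmer, at 414.2 and 140.2 linear on one probe set and 167.4 and 109.4 on the other, a mean log2 ratio of 1.09. Among 6 markers of endothelial cells, 2 were measured, Kdr and Vwf, while Pecam1, Cdh5, Tek and Tie1 were under the floor in both clones. In the hPHD4 and control clones Kdr had linear signals of 113.2 and 108.0, and Vwf 205.6 and 306.4. The summed linear signal of all endothelial probe sets was 509 with hPHD4 and 464 without, but this sum includes probe sets under the floor. Among these, the Cdh5 probe sets had 71.6 and 71.4 with hPHD4, against 8.8 and 6.5 in the control. Of 6 markers of pericytes and smooth muscle, 4 were measured, 2 with a log2 ratio above 0 and 2 below. These were Des at 0.42, Cspg4 at 0.16, Pdgfrb itself at −0.56 and Acta2 at −1.5. The summed linear signal of all probe sets of this list was 6457 against 16300, a gap carried by Acta2 (5385 and 15193). The part of such cell states in the results for Pdgfra and Pdgfrb was not tested. In RNA from whole cultures, fewer cells of a kind and less RNA per cell cannot be told apart.

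Pdgfc and Pdgfa were higher in the hPHD4 clone, at 2.43-fold and 1.60-fold, and Pdgfra was 1.91-fold lower. Ptn, at 3.10-fold lower, was farthest from 0 of the 7 measured genes, and Vegfa was near 0. At a 1.5-fold threshold 2 of the 7 were higher, where 8.94% of all measured genes were, and 2 were lower, where 5.22% of all measured genes were. At a 2-fold threshold Pdgfc alone was higher (1.89% of all measured genes) and Ptn alone lower (0.98%). Together 4 of the 7 lay past 1.5-fold in either direction, where 14.2% of all measured genes did. The median log2 ratio of the 7 was 0.45, with members between −1.63 and 1.28.

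**Figure D1:**
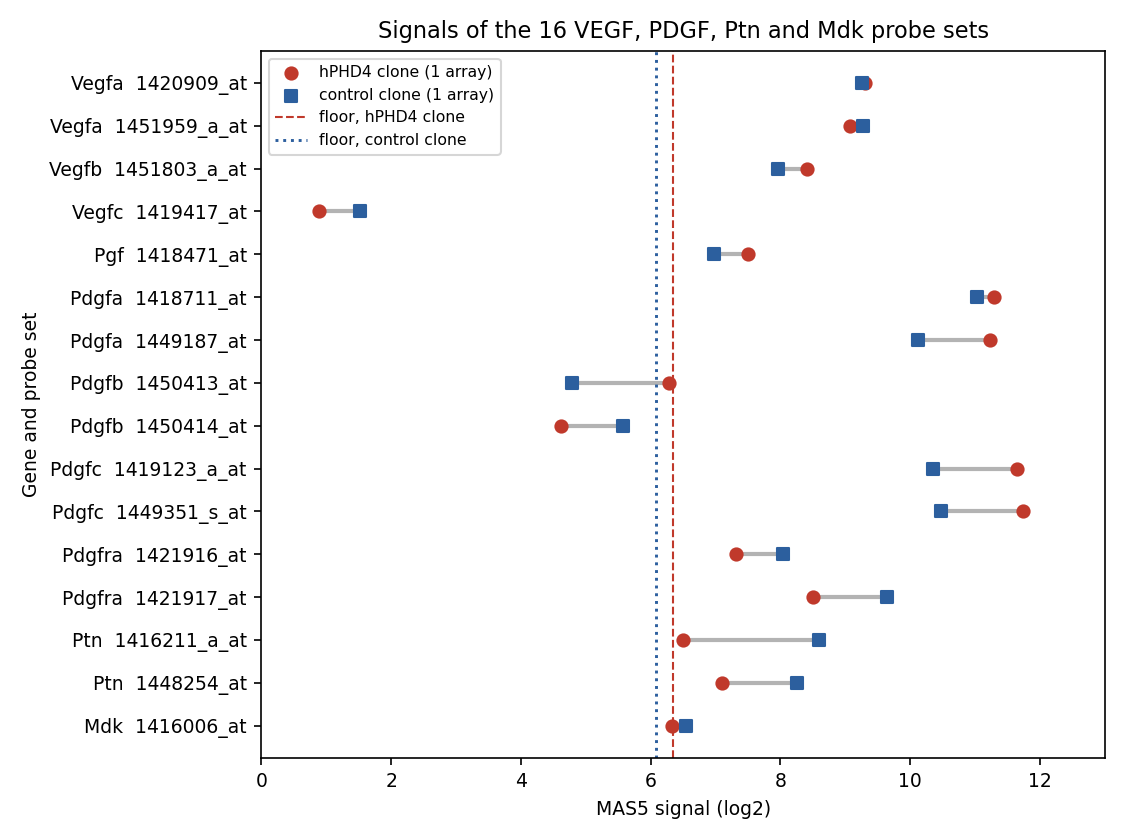
Log2 MAS5 signal (horizontal axis) of each probe set of the 10 genes in the hPHD4 clone (red circles) and the control clone (blue squares), 1 array each, with the floors of both arrays as vertical lines. Pdgfc and Pdgfa probe sets lie to the right in the hPHD4 clone and Pdgfra and Ptn probe sets to the left; Vegfc and Pdgfb lie under the floors. Positions of different probe sets along the axis are not comparable, because each has its own probes.

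The sequences just before the transcription starts are given for the genes that differed most and for Vegfa, so that the letters can be read beside the expression values. RefSeq promoters of assembly GRCm38.p6 were matched to 8 of the 10 genes. Shown are the 250 bases before the start, 5′ to 3′ on the strand of the gene, with matches to any of the motifs searched in capitals.

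Pdgfc, chr3:81036166-81036415, plus strand: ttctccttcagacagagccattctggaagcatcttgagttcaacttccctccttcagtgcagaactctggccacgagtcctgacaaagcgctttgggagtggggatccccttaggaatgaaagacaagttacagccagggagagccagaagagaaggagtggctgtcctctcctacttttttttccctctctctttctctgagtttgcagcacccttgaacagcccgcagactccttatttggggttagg
Pdgfa, chr5:138994945-138995194, minus strand: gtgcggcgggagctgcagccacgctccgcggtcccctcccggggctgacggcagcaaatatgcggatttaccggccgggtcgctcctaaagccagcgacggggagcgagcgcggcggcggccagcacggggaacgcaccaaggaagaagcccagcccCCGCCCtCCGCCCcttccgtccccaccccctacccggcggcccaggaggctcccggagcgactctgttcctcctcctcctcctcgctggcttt
Pdgfra, chr5:75152001-75152250, plus strand: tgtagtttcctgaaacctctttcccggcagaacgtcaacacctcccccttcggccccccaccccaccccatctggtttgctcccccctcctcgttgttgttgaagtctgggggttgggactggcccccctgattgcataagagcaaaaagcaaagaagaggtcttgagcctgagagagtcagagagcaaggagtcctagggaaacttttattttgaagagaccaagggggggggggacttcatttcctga
Ptn, chr6:36810180-36810429, minus strand: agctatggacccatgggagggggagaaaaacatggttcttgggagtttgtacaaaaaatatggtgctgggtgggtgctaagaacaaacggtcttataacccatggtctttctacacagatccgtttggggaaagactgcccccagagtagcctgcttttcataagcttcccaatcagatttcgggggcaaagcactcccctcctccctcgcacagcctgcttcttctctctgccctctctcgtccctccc
Vegfa, chr17:46032378-46032627, minus strand: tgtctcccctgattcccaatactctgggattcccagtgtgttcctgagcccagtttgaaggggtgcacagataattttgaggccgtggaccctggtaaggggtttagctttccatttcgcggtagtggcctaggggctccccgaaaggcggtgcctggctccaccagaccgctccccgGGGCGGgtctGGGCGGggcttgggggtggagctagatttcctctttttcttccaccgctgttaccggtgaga

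The motifs searched, on both strands, were the core of the hypoxia response element (ACGTG), the GC box bound by Sp1 (GGGCGG), an Egr1 site (GCGGGGGCG), an AP-1 site (TGANTCA) and the TATA box (TATAAA). The hypoxia core is also part of the E-box CACGTG, and the Egr1 letters can overlap a GC box. None of these letters occurred in the windows of Pdgfc, Pdgfra and Ptn. The Pdgfa window shown held the GC box at −93 and −86, in the reverse orientation, and the Vegfa window held it at −72 and −62. In all, 5 of the 8 genes had a GC box in at least 1 window (Pdgfa, Pgf, Vegfa, Vegfb and Vegfc). Counted by window, it was in 7 of the 11 windows of these genes and in 32.7% of 32851 mouse promoter windows of this length. Those 7 windows held 59.2% to 76.4% G and C bases, against a median of 52.4% over all promoters. The part of base composition in these matches was not tested. ACGTG was found in 1 of the 11 windows of these genes and in 16.6% of all windows. That 1 belongs to another annotated Vegfa start, at chr17:46025164-46025413 on the minus strand. It lies downstream of the Vegfa window shown, so its letters are not upstream of that start. The same window is also among the 7 with a GC box. The AP-1 and TATA letters were in 0 of the 11 windows, against 6.75% and 12.4% of all windows, and the Egr1 letters were in the Vegfb window (2.57% of all). These are matches of letters in a short window and say nothing of binding; elements farther from the start were not searched.

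Among the VEGF ligands, Vegfa was well above the floors and nearly equal in the clones. Its probe set 1420909_at had linear signals of 636.3 with hPHD4 and 611.4 in the control, and 1451959_a_at had 542.1 and 619.0. One probe set was slightly higher and the other slightly lower in the hPHD4 clone, at log2 ratios of 0.06 and −0.19. The gene mean of −0.07 was smaller than the SD of 0.37 between probe sets of genes of its brightness. Among all measured genes 4586 had a higher ratio and 2865 a lower one, so Vegfa sat near the middle. The sign of this ratio changed, to 0.06 with the brightest probe set and to 0.10 once the median of chromosome 17, −0.17, was subtracted. Of the 20 measured genes nearest to Vegfa, 17 had a log2 ratio below 0 and 16 were lower than Vegfa.

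Vegfb and Pgf, the ligands of Flt1, were each read from 1 probe set and were slightly higher in the hPHD4 clone. Vegfb had linear signals of 339.6 and 248.4, a log2 ratio of 0.45 (1.37-fold) against an SD of 0.37. Pgf had 180.5 and 125.4, a log2 ratio of 0.53 (1.44-fold) against an SD of 0.40. Neither reached 1.5-fold, and the signals of Pgf were 1.15 and 0.89 log2 units above the floors. The Vegfb value was close to those of the genes around it. On chromosome 19 the median of 281 measured genes was 0.31, the 20 measured genes nearest to Vegfb in gene order had a median of 0.45, and 11 of them were higher than Vegfb itself. With the chromosome median subtracted the ratio of Vegfb was 0.15. For Pgf, on chromosome 12, the 20 neighbours had a median of 0.09.

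Vegfc was not detectable on either array. Its probe set had linear signals of 1.9 and 2.9, far under the floors, at the 0.583rd and 2.96th percentile of the 2 arrays. Vegfd, the other lymphatic VEGF ligand, passed the control floor of 67.8 on 3 of 3 probe sets (71.6, 124.0 and 76.8 linear) and the hPHD4 floor of 81.1 on 0 of 3 (73.4, 62.8 and 59.8). Neither gene gives a ratio here.

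Of the PDGF ligands, Pdgfc differed most and was read alike by both of its probe sets. Probe set 1419123_a_at had a linear signal of 3190 in the hPHD4 clone, against 1306 in the control clone. The other, 1449351_s_at, had 3427 and 1422. Their log2 ratios were 1.29 and 1.27, and the SD of 0.01 between them compares with an SD of 0.28 for genes of this brightness. Both target the same transcript record, NM_019971, so they are repeat readings of 1 RNA and not independent samples. The mean log2 ratio of 1.28 was exceeded by 49 of the 7452 measured genes. All signals of Pdgfc were more than 4 log2 units above the floors, and its ratio stayed between 1.25 and 1.30 under every alternative tried.

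Some genes next to Pdgfc on chromosome 3 were also higher in the hPHD4 clone. Immediately before it in the order of measured genes, Glrb had a log2 ratio of 1.39, and Gask1b, a few genes farther on that side, 2.49; their control signals were 0.34 and 0.35 log2 units above the floor. The next gene after it, Gucy1b1, was at 0.54. The 20 nearest measured genes nevertheless had a median of 0.08, with 15 above 0 and only Glrb and Gask1b above Pdgfc, and the chromosome median was 0.02. Whether the genes next to Pdgfc share a cause with it was not tested.

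Pdgfa was bright in both clones, but its probe sets gave different sizes. Probe set 1418711_at had linear signals of 2505 and 2095, a log2 ratio of 0.26. On 1449187_at the signals were 2395 and 1114, a log2 ratio of 1.10. Both were higher in the hPHD4 clone, and both are assigned to the same record, BB371842. They nevertheless disagreed by 0.85 on the log2 scale in the size of the difference. The SD of 0.60 between them was above the 0.28 of genes of this brightness. The mean log2 ratio was 0.68 (1.60-fold), and read from the brighter probe set alone the gene no longer reached 1.5-fold. Chromosome 5 as a whole lay below 0, at a median of −0.19, and with that subtracted the ratio was 0.87. The 20 measured genes nearest to Pdgfa lay the other way, at a median of 0.13, with 14 above 0 and 1 higher than Pdgfa.

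Pdgfb, the ligand shared by both PDGF receptors, was under the floor on both of its probe sets in both clones. The linear signals were 77.5 and 27.5 on 1450413_at, and 24.6 and 47.8 on 1450414_at. The probe sets pointed in opposite directions, so no ratio was taken. Pdgfd was likewise under the floors, at 18.7 and 22.6.

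The receptor Pdgfra was lower in the hPHD4 clone on both of its probe sets. Probe set 1421916_at had linear signals of 158.3 and 262.5, and 1421917_at had 360.9 and 796.0. The log2 ratios of −0.73 and −1.14 averaged −0.94, against an SD of 0.37, and 90 of 7452 measured genes had a lower ratio. On every alternative the ratio was between −1.14 and −0.75, and with a floor at the 60th percentile it rested on 1421917_at alone.

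Pdgfra lies in a stretch of chromosome 5 where most measured genes were lower in the hPHD4 clone. Of its 20 nearest measured neighbours, 18 had a log2 ratio below 0, and their median was −0.30, between −1.07 for Fip1l1 and 0.07 for Kdr. Only Fip1l1 was lower than Pdgfra. The neighbour of Pdgfra on the other side, Chic2, was at 0.04. The ratio of Pdgfra was therefore larger in size than that of its region, and the part of the region in it was not tested.

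**Figure D2:**
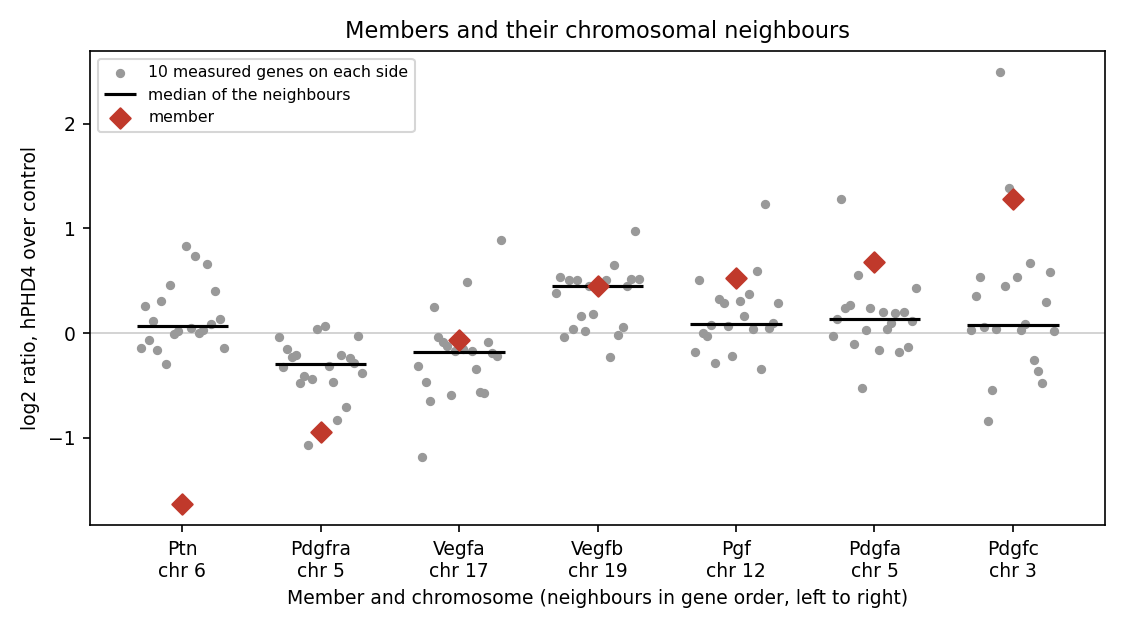
Log2 ratio, hPHD4 clone over control clone (vertical axis), of each measured gene of the families (red diamond), of the 10 measured genes on each side of it in chromosome order (grey points) and the median of those neighbours (black line). Vegfb lies on its neighbours' median of 0.45. Vegfa lies above 16 of its 20 neighbours, whose median is −0.18. Ptn lies below all 20 neighbours, Pdgfra below 19 of 20, and Pdgfc above 18 of 20.

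Pdgfrb, the other PDGF receptor, is no member of the 10 but bears on the same comparison. Its probe set 1436970_a_at had linear signals of 190.1 and 281.0, a log2 ratio of −0.56. The other, 1417148_at, had 63.1 and 132.6, and was above the floor in the control clone alone. Both PDGF receptors were thus lower in the hPHD4 clone on all 4 of their probe sets, Pdgfrb by less than 1.5-fold on the probe set measured in both.

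Ptn, encoding pleiotrophin, was lower in the hPHD4 clone on both of its probe sets. Probe set 1416211_a_at had a linear signal of 90.2 in the hPHD4 clone, against 388.4 in the control clone. The other, 1448254_at, had 137.3 and 307.0. Their log2 ratios of −2.11 and −1.16 differed by 0.94, and the SD of 0.67 between them was above the 0.40 of genes of this brightness. The mean was −1.63 (3.10-fold lower), and 15 of 7452 measured genes had a lower ratio. In the hPHD4 clone the signals were only 0.15 and 0.76 log2 units above the floor, and in the control clone 2.52 and 2.18 above it. On chromosome 6 the 20 nearest measured genes had a median of 0.07, and Ptn was lower than all of them.

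Mdk, encoding midkine, was close to the floor in both clones. The hPHD4 clone had a linear signal of 80.3, just under its floor of 81.1, and the control clone 93.2, above its floor of 67.8. It therefore counts as not measured, and the log2 ratio of −0.22 given by these signals is small beside the SD of 0.40 for dim genes. Its control signal was 0.46 log2 units above the floor, so a lower level of the size read for Ptn could not have been measured.

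**Figure D3:**
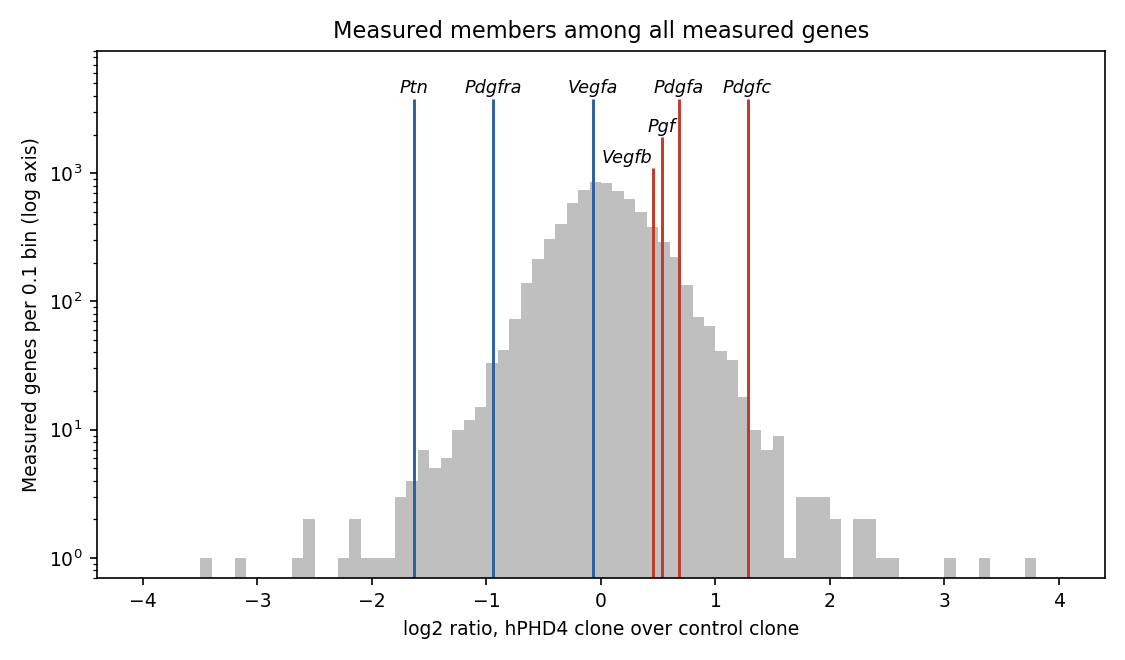
Number of measured genes (vertical log axis) in each bin of log2 ratio, hPHD4 clone over control clone (horizontal axis), with the 7 measured genes of the families marked by lines. Ptn, at −1.63, and Pdgfra, at −0.94, lie below the central 95% of genes, which ends at −0.73; Pdgfc, at 1.28, lies above its other end at 0.92.

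The genes around these ligands were described by lists. Beside the counts past 1.5-fold in each list stand the shares of all measured genes, 8.94% higher and 5.22% lower. The lists were small, and none was tested against these shares. Of 9 receptors and co-receptors of VEGF and PDGF, 6 were measured, with a median log2 ratio of 0.12 against 0.03 for all measured genes. One, Nrp1, was at least 1.5-fold higher and 1, Pdgfra, at least 1.5-fold lower. Nrp1 encodes neuropilin 1, a co-receptor that binds VEGF-A. Its 3 probe sets had linear signals of 307.3 and 172.6, 1138 and 764.4, and 186.4 and 88.9 in the hPHD4 and control clones. All 3 were higher in the hPHD4 clone, and the mean log2 ratio was 0.83 (1.77-fold). Nrp2 was at 0.17. Kdr, the main signalling receptor of VEGF-A, was close to the floor and nearly equal in the clones (113.2 and 108.0 linear), and Flt1 passed the floor on 1 of 3 probe sets, with hPHD4 only (120.9, against 25.7).

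Among 10 listed receptors of pleiotrophin and midkine, 6 were measured, with a median of 0.13, 1 at least 1.5-fold higher and 0 lower. This 1 was Sdc3 (syndecan 3), a heparan sulfate proteoglycan that binds pleiotrophin. Its measured probe sets had linear signals of 1945 and 1286, and 294.9 and 191.7, a mean log2 ratio of 0.61 (1.53-fold). Ptprz1 was under the floor on all 3 of its probe sets in both clones. Alk, a receptor tyrosine kinase reported to bind pleiotrophin, was above the floor only in the control clone, at 83.5 linear against 41.5. Nucleolin (Ncl), the brightest gene of the list, was at −0.02.

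Of 12 proteases that process these ligands, 5 were measured, with a median of 0.03. Furin, the proprotein convertase that cleaves PDGF-A and VEGF-C precursors, had linear signals of 372.7 and 203.5, a log2 ratio of 0.87 (1.83-fold higher) on 1 probe set. The related convertase Pcsk6 was at 0.39 (1583 and 1211). Plat, the tissue plasminogen activator that activates PDGF-C, was under the floor in both clones, at 11.5 and 61.7 linear. Adamts1, a secreted metalloprotease, was 1.60-fold lower, at 1015 and 1623.

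The signalling enzymes and adaptors at these receptors were balanced. Of 35 listed, 24 were measured, 12 above 0 and 12 below, with a median of 0.01; Stat3 (0.66) was at least 1.5-fold higher and the Src-family kinase gene Yes1 (−0.68) at least 1.5-fold lower. The measured probe sets of Stat3 disagreed, at 0.13 and 1.20. Ptpn11, encoding the phosphatase SHP2 and the brightest gene of that list, was at −0.45. In the list of heparan sulfate synthesis 11 of 20 genes were measured, with a median of 0.03, 0 at least 1.5-fold higher and 1 lower, B4galt7 at −0.67; the polymerase gene Ext2 was at 0.15.

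Other angiogenic growth factors and receptors had a median of −0.25 over 13 measured genes of 28 listed, with 6 above 0 and 7 below. Ccn2, encoding connective tissue growth factor, had linear signals of 554.3 and 258.5, a log2 ratio of 1.10. Efnb2, encoding the vessel guidance ligand ephrin B2, was at 0.69, although its 3 measured probe sets ranged from 0.01 to 1.47. These 2 were the members at least 1.5-fold higher, and 0 were at least 1.5-fold lower. Fgf7, the brightest gene of this list, was at −0.31. The direction of this median depended on the filter: with the floor at the 20th percentile it was 0.40.

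**Figure D4:**
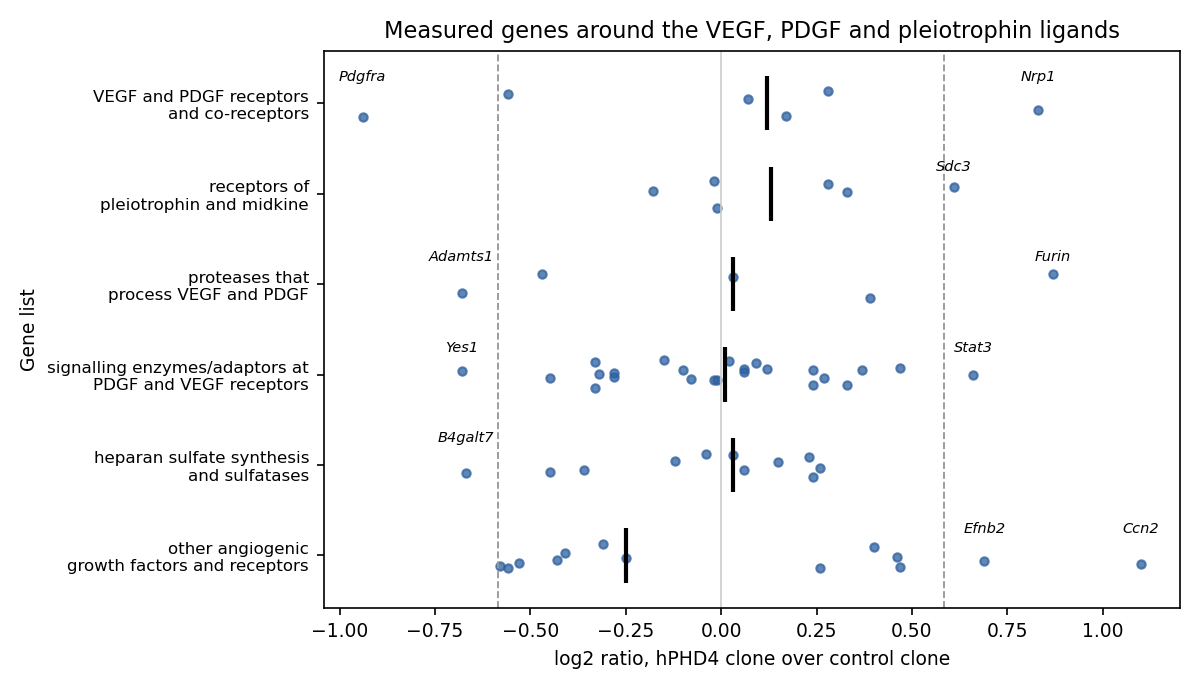
Log2 ratio, hPHD4 clone over control clone (horizontal axis), of each measured gene (points, spread vertically only for legibility) in the 6 lists with at least 3 measured genes. Black bars are list medians, between −0.25 and 0.13, and dashed lines mark 1.5-fold; genes past them are named.

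The values of the 7 measured genes under the alternatives show which of them depend on processing. Pdgfc, Pdgfra and Ptn kept their sign and stayed past 1.5-fold wherever they were measured. Pdgfa was inside 1.5-fold in the alternative that read each gene from its brightest probe set, and Vegfb and Pgf were inside it throughout. Ptn and Pgf were not measured with the floor at the 60th percentile.

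**Figure D5:**
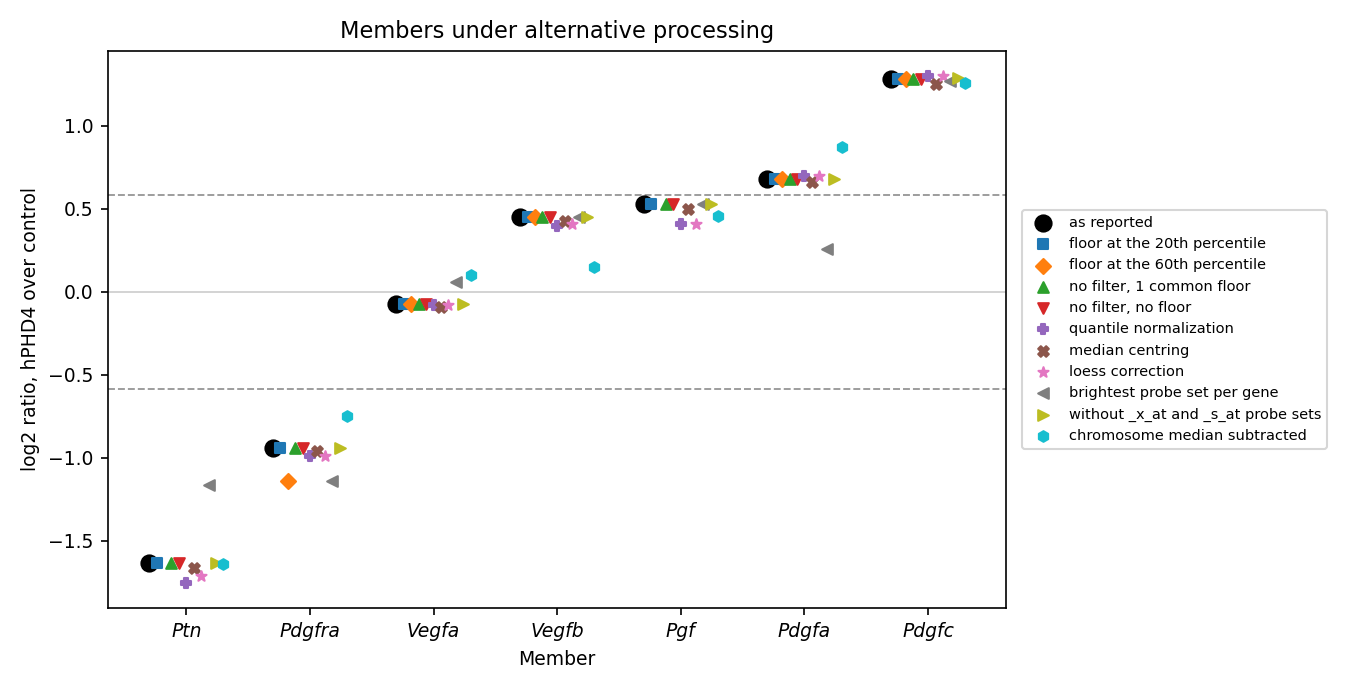
Log2 ratio, hPHD4 clone over control clone (vertical axis), of the 7 measured genes as reported (black) and under each alternative (colours and symbols). Dashed lines mark 1.5-fold. Pdgfc stays between 1.25 and 1.30, Ptn between −1.75 and −1.16, and Pdgfa drops to 0.26 with the brightest probe set.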

How the data were processed

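Total RNA of 1 hPHD4 clone and 1 control clone of LM8 cells was hybridised to Affymetrix mouse arrays, with biotin-labelled targets made from 5 µg of RNA, per the labels' protocols. MAS5 gave the authors' deposited values, a log2 signal for each probe set, per the submitters' processing notes. Detection calls were not used here, with the version and settings not given in the sources used here. Log base and scaling were read from the numbers: converted to linear signals and trimmed by 2% at each end, the non-control signals had means of 497.6 and 497.3. No further scaling was applied to the reported values.

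Of 22626 non-control probe sets, 20380 had 1 gene symbol in the platform annotation, 691 several and 1555 none; those with 1 symbol were used. All 10 genes were matched by gene number to RefSeq (GRCm38.p6). The ratio of a gene was the mean over its measured probe sets. The SD between probe sets was pooled over 7007 probe sets of 2800 genes. For each measured gene the 10 nearest measured genes on each side were taken in gene order. With 1 array per group the number of arrays limits the precision. The genes and lists were chosen with earlier results of these data known. Named from each pathway list were up to 6 measured genes past 1.5-fold and the gene with the highest mean signal. Alk, Chic2, Fip1l1, Flt1, Gask1b, Glrb, Gucy1b1, Kdr, Pdgfd, Pdgfrb, Plat, Ptprz1 and Vegfd were named after their values were seen. So were B3galt6, Cbl, Csf1, Ephb4, Fgf1, Hgf, Igf1, Mmp9, Pcsk5, Src and the Fgf receptors in the closing section, and genes of the marker lists. Marker lists of osteoblasts, endothelial cells, pericytes and smooth muscle, leukocytes and epithelial cells were read in the same way.

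Alternatives covered the floor (20th and 60th percentile), no filter with or without a common floor, quantile normalization, median centring, loess correction (span 0.3), the brightest probe set, leaving out probe sets ending in _x_at or _s_at, and a 2-fold threshold. Subtraction of the chromosome median was added after seeing the data. The steps were also run on simulated data. The simulated noise had the same size at every signal level and held no variation between clones. That run bears on the calculation only, not on the differences reported here. Python 3.11.15, pandas 2.3.3, numpy 2.4.6, statsmodels 0.14.6 and matplotlib 3.10.9 were used.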

Additional observations from a re-analysis of the deposited data

How the results depend on the processing

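A result was taken as moved when it shifted by more than the SD between probe sets of one gene, or, for a count, by more than 1.5 times. By that measure 66 of 68 alternative values of the genes, 26 of 30 alternative counts and 56 of 60 alternative list medians did not move, and no ratio past 1.5-fold changed sign. Part of this was fixed in advance. Every probe set of the 7 measured genes lay above both floors on both arrays, so the lower floor and both no-filter settings could not change their ratios. Leaving out _x_at or _s_at probe sets touched only Pdgfc, and the brightest probe set could not change Vegfb or Pgf. With the brightest probe set per gene Pdgfa was at 0.26 and Ptn at −1.16, and the count at least 1.5-fold higher was 1 in place of 2. At a 2-fold threshold 1 gene was higher and 1 lower. With the floor at the 60th percentile 5 genes were measured and 1 was at least 1.5-fold lower, because Ptn was no longer measured. With it at the 20th percentile 9 were measured, and the list medians were 0.40 for other angiogenic factors and 0.39 for proteases; with no filter and no floor these were 0.46 and −0.38. These settings differ from the reported one only in adding dimmer probe sets. The median of all genes stayed between −0.01 and 0.10 under the alternatives. No paired analysis was possible because each group had 1 array.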

Other observations

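Receptors of fibroblast growth factors were read beside the PDGF receptors after their values were seen, and none of the 3 reached 1.5-fold. The log2 ratios were −0.56 for Fgfr1 (−0.76 and −0.36 on its probe sets) and −0.43 for Fgfr2 (−0.52 and −0.34). For Fgfr3 the mean was −0.58, but its probe sets disagreed: 1421841_at was at −0.05, and 1425796_a_at at −1.10 with an hPHD4 signal of 86.1 against the floor of 81.1. Csf1, encoding the macrophage growth factor M-CSF, was at −0.41 over 4 measured probe sets, from −0.85 to −0.06.

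Of 102 genes in the lists around the families, 8 (7.84%) passed the floor with hPHD4 only and 4 (3.92%) in the control only. Over all 12393 genes the shares were 4.48% and 3.61%. The 8 with hPHD4 only were B3galt6, Cbl, Flt1, Hgf, Igf1, Mmp9, Pcsk5 and Src, so growth factors were only some of them. Igf1, an angiogenic and bone growth factor gene, was above the floor on all 3 of its probe sets in the hPHD4 clone (93.5, 147.7 and 217.0 linear) and on 0 of 3 in the control clone (41.3, 4.7 and 5.5). Hgf, encoding hepatocyte growth factor, was above it in the hPHD4 clone on 1 of 2 probe sets, at 109.2 against 31.5 linear. The 4 that passed the floor in the control clone only were Alk, Ephb4, Fgf1 and Vegfd. The floor was higher for the hPHD4 clone (81.1) than for the control (67.8), so this call gives no direction. On 1450869_at Fgf1 had 75.5 linear with hPHD4 and 69.7 in the control, so its signal was slightly higher in the hPHD4 clone.

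Of the other marker lists, leukocyte genes had 2 of 5 on the array measured, Cd68 and Lyz2, and epithelial genes had 0 of 5 measured. The summed linear signals of the hPHD4 and control clones were 374 and 186 for leukocyte genes, and 251 and 134 for epithelial genes. These sums include probe sets under the floor on 1 or both arrays. The measured Cd68 had 101.0 and 72.2, and Lyz2 108.0 and 79.4. The epithelial gap came mostly from Krt8 probe set 1420647_a_at, at 173.1 and 59.4, which passed the floor with hPHD4 only. The 5 osteoblast genes had a median log2 ratio of 0.21, with Ibsp at 1.09 past 1.5-fold and the other 4 between −0.43 and 0.23.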
